A study of Mus musculus with 8 samples.

Results

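The 9 genes encoding inflammatory CC chemokines, Ccl2, Ccl3, Ccl4, Ccl5, Ccl7, Ccl8, Ccl9, Ccl11 and Ccl12, were followed in activated mouse microglial cultures that had received an adenosine A2A receptor antagonist alone or together with an A3 receptor agonist. The 9 genes were taken by symbol, but the list was chosen with earlier results of these data known. Each was found under 1 identifier among the 31406 genes of the table that compares both groups, and again in the table of the antagonist against control. Counts came from RNA sequencing of 8 libraries of wild-type primary microglial cultures, which the methods of the study describe as striatal and prepared from C57/BL6 pups of 2 to 4 days. All cultures were kept for 15 days, and activation lasted 48 h with bacterial lipopolysaccharide (LPS) plus interferon-γ, a combination that drives a proinflammatory state, and all received SCH 58261, a selective A2A receptor antagonist. In 4 libraries SCH 58261 was the sole receptor ligand (antagonist group), and in 4 it was joined by 200 nM 2-Cl-IB-MECA, a selective A3 receptor agonist (dual group), the ligands being added at 24, 32 and 40 h of activation. The comparison asks what the A3 agonist changed on top of A2A blockade.

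Several features of the groups limit what the values mean. Grouping followed the sample titles, which match the count column names. The treatment field of the labels contradicts them, since it places 2-Cl-IB-MECA in the libraries whose titles give SCH 58261 alone and omits it where the titles give both, so every direction here depends on the titles being right. The methods and a caption of the study give different numbers of replicates for the ligand-treated cells, 3 and 4, and the deposited counts hold 4 libraries in each group. Control libraries that received vehicle are not analysed here. The methods name the interferon-γ used for activation as human, on cells of mouse, and whether it acted on them was not tested here. The labels tie no library to an animal, litter or date, so a p-value here measures the spread between libraries, which may be technical.

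CC chemokines are small secreted proteins that attract leukocytes by binding G protein-coupled receptors of the CCR family, and they are named for a pair of adjacent cysteines near the start of the mature protein. Microglia and astrocytes release them when LPS engages Toll-like receptor 4 and activates NF-kB, and interferon-γ adds signals through the interferon regulatory factors. Ccl2, Ccl7 and Ccl12 attract monocytes through Ccr2, Ccl3, Ccl5 and Ccl9 act on Ccr1, Ccl4 attracts monocytes and T cells, Ccl11 (eotaxin) attracts eosinophils through Ccr3, and mouse Ccl8 acts on Ccr8.

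The 9 genes lie on chromosome 11 in a pair of clusters (GRCm38). The members in the first are, in order, Ccl2 (82035571 to 82037453, plus strand), Ccl7 (82045712 to 82047525, plus strand), Ccl11 (82057823 to 82062955, plus strand), Ccl12 (82101845 to 82103400, plus strand) and Ccl8 (82115185 to 82116799, plus strand). The members in the second start 1408978 bases further on, past 26 protein-coding genes that include Ccl1. They are Ccl5 (83525778 to 83530518, minus strand), Ccl9 (83572919 to 83578636, minus strand), Ccl3 (83647844 to 83649355, minus strand) and Ccl4 (83662584 to 83664683, plus strand), with Ccl6 between Ccl9 and Ccl3. Ccl3 and Ccl4, the members on which the comparison turned, are neighbours with 13228 bases between them.

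Close relatives can share reads, so the transcripts were compared by their words of 31 bases. No 31-base word of Ccl2, Ccl3, Ccl4, Ccl7, Ccl8 or Ccl12 occurred in the transcripts of another gene, and such words made up 0.539% of Ccl5, 3.98% of Ccl9 and 0.0951% of Ccl11. Ccl2 is overlapped on the opposite strand by Gm17268, which had 0 to 4 counts per library against 40434 or more for Ccl2. The sources do not say if the counting was stranded.

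RefSeq promoter windows of 300 bases (250 before and 50 after the start, GRCm38.p6) were at hand for 4 members, Ccl3, Ccl8, Ccl9 and Ccl12. They were searched on both strands for letter patterns of the factors that LPS and interferon-γ act through, GGNNTTTCC (part of a kappa B site), TTCNNNGAA (STAT), GAAANNGAA (IRF) and TGANTCA (AP-1). The Ccl3 window, chr11:83649329-83649628 on the minus strand, held 1 IRF match, which begins 39 bases before the RefSeq start and is capitalised here:
Ccl3 promoter: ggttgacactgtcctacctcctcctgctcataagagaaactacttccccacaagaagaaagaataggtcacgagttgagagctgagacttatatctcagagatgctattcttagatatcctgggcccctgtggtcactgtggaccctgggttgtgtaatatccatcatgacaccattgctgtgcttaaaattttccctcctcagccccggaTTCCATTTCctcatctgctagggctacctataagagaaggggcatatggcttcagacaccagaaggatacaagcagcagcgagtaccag

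The match is written as it reads on the Ccl3 strand, where the pattern appears in reverse complement. The Ccl9 window held the kappa B pattern beginning 35 bases and an AP-1 pattern beginning 53 bases before the start, and the windows of Ccl8 and Ccl12 held none of the 4. Among 32851 RefSeq promoter windows of this length, 5.82% held the kappa B pattern, 8.30% the STAT, 8.56% the IRF and 7.81% the AP-1 pattern. These matches describe letters only.

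Library totals ran from 32630602 to 45878639 counts, with 26155 to 26809 genes detected. Within each group, no pair of libraries differed by as little as counting noise, which would have marked a library deposited more than once (chi-square per degree of freedom from 3.80 to 9.43). All 10 microglial markers were detected, among them Cx3cr1 at 18.3 to 23.6 FPKM (fragments per kilobase of gene, scaled to sequencing depth by the authors) and Csf1r at 42.9 to 49.6 FPKM, while P2ry12 was at 0.573 to 0.975 FPKM. Markers of other cells were present as well: the astrocyte marker Gfap was at 365 to 410 FPKM and the fibroblast marker Col1a1 at 53.0 to 75.4 FPKM, so the cultures held RNA of more than microglia. Each chemokine value is therefore that of a mixed culture, in which fewer cells of a type and less RNA per cell cannot be told apart. The methods of the study, by contrast, report a high microglial purity by CD11b labelling of the cells.

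Per gene length the family spanned from some of the highest levels in the table to near the limit of detection. Ccl2 was highest at a mean of 1145 FPKM over the 8 libraries (1080 to 1215), the 18th level among 31406 genes. Ccl7 followed at 880 FPKM (827 to 936) and Ccl5 at 665 FPKM (564 to 808), the 23rd and 34th levels. These 3 genes stood well above the rest of the family. Ccl3 had a mean level of 217 FPKM (167 to 276), Ccl4 122 FPKM (92.7 to 164) and Ccl12 97.2 FPKM (85.0 to 111). Ccl8 was at 32.5 FPKM (27.4 to 39.1) and Ccl9 at 17.8 FPKM (15.1 to 20.4). Ccl11 was by far the lowest, at 0.342 FPKM (0.0721 to 0.769).

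**Figure D1:**
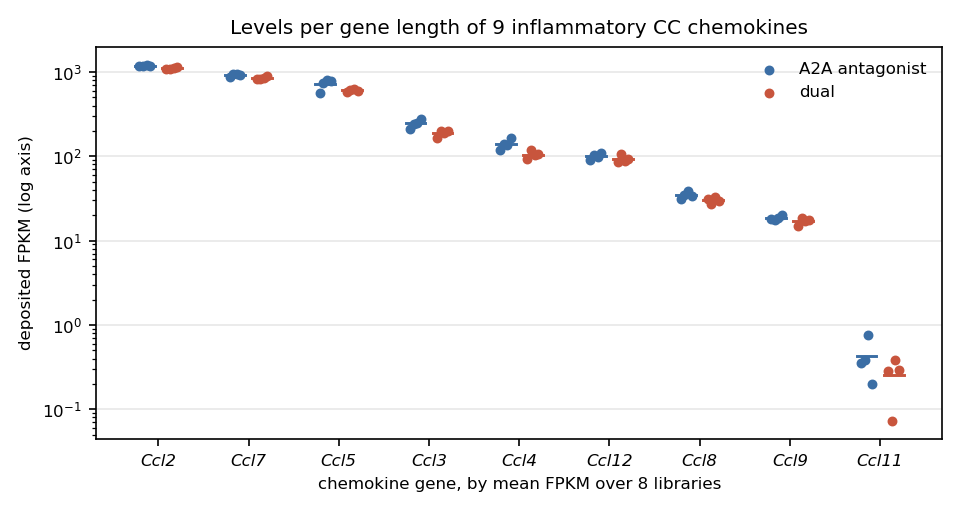
Deposited FPKM (log axis) of the 9 chemokine genes in each of 4 antagonist and 4 dual libraries, with a bar at each group mean, ordered by the mean over 8 libraries. The levels run from a mean of 1145 FPKM for Ccl2 to 0.342 FPKM for Ccl11, and the dual points of most genes sit slightly lower.

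The order of the levels held in each of the 8 libraries for every pair of neighbours. The ranges over libraries overlapped for 1 pair, Ccl4 and Ccl12, although Ccl4 was the higher within each library, by 1.09 to 1.49 times. The closest other neighbours were Ccl2 over Ccl7, whose mean levels differed 1.30-fold, and Ccl7 over Ccl5 at 1.32-fold. The order was the same when counts scaled to library size (CPM, counts per 1e+06) were divided by gene length.

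With both ligands, Ccl3 transcripts fell by 22.8%, Ccl4 transcripts fell by 24.7%, and the estimates for all 9 chemokines were lower in the dual group. All 9 passed the low-count filter. Ccl3 and Ccl4 were called lower by edgeR's quasi-likelihood test at a Benjamini-Hochberg adjusted p under 0.05, where 0.16% of the 18756 genes tested were called lower and 0.208% in either direction. An estimate below 0 was found for 48.5% of all genes tested, against 9 of 9 members. An unadjusted p under 0.05 with a lower level was found for 7 of the 9 (all but Ccl11 and Ccl12), against 6.81% of all genes. As the members were chosen with earlier results of these data known, these counts describe the list and are no independent test. The median log2 fold change was -0.20 over the members and 0.0038 over all genes tested. No member both passed the test and exceeded the 1.5-fold criterion of the study, and the 1 member past that fold, Ccl11, did not pass the test.

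The 9 genes together took 0.319% ± 0.0165 of all counts (SD, n = 4) in the antagonist group and 0.288% ± 0.0083 (SD, n = 4) in the dual group. Their summed level was 2949.5, 3225, 3336 and 3322 CPM in antagonist replicates 1 to 4 and 2763, 2878, 2889 and 2947 CPM in dual replicates 1 to 4, with CPM scaled by TMM factors. Every dual library lay below every antagonist library, although the highest dual and the lowest antagonist library nearly met. Ccl2, Ccl7 and Ccl5 make up most of this sum.

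**Figure D2:**
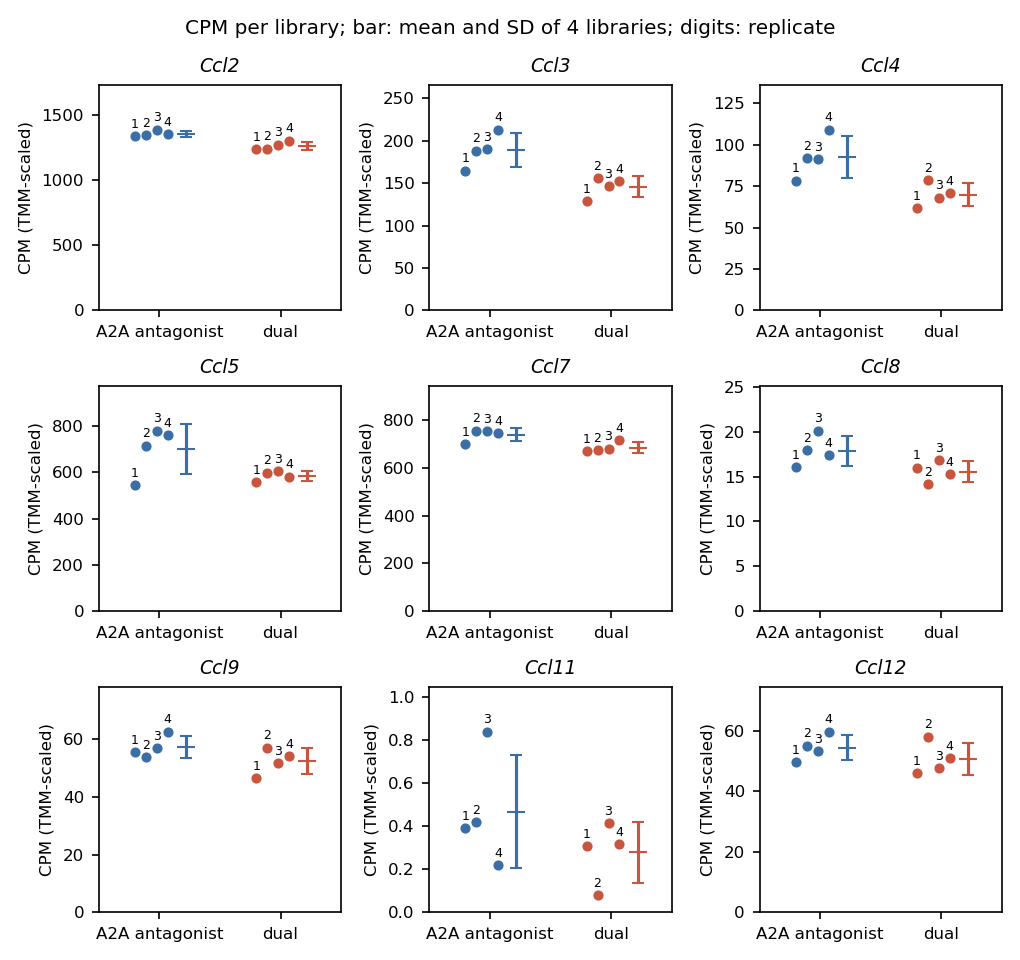
TMM-scaled CPM (linear axes from 0) of each chemokine in 4 antagonist and 4 dual libraries, with replicate numbers beside the points and the mean and SD at the right of each group. For Ccl2 and Ccl3 the 4 dual points lie below every antagonist point, and for Ccl11 the points scatter widely.

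Ccl3 and Ccl4 encode macrophage inflammatory proteins 1-alpha and 1-beta, which recruit monocytes and T cells. Ccl3 was at 164, 188, 190 and 213 CPM in antagonist replicates 1 to 4 and at 129, 156, 146 and 153 CPM in dual replicates 1 to 4. The groups did not overlap. Ccl3 had means of 189 ± 19.8 and 146 ± 12.01 CPM (SD, n = 4 each), a log2 fold change of -0.37 with an SE of 0.06, an adjusted p of 0.0240, and stood 9th by p among all genes tested. The exact two-sided permutation test over the 70 arrangements of the libraries gave Ccl3 p = 0.0286, the smallest value this design allows.

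Ccl4 was at 78.2, 91.8, 91.4 and 109 CPM in antagonist replicates 1 to 4 and at 61.7, 78.5, 68.0 and 70.6 CPM in dual replicates 1 to 4. Dual replicate 2 lay just above antagonist replicate 1, and the other 3 dual libraries lay below every antagonist library. Ccl4 had means of 92.6 ± 12.6 and 69.7 ± 6.96 CPM (SD, n = 4 each), a log2 fold change of -0.41 with an SE of 0.08, and an adjusted p of 0.0325. Its exact permutation p was 0.0571.

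The calls of Ccl3 and Ccl4 depended on single libraries. Ccl3 had an adjusted p of 0.0608, 0.0791 and 0.0932 without antagonist replicate 2, 3 or 4 and of 0.0650 without dual replicate 3. Ccl4 lost its call without each of these libraries (adjusted p from 0.0750 to 0.100), and also without dual replicate 1 (0.0677) or dual replicate 4 (0.0598). The log2 fold change stayed between -0.43 and -0.31 for Ccl3 and between -0.48 and -0.32 for Ccl4.

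**Figure D3:**
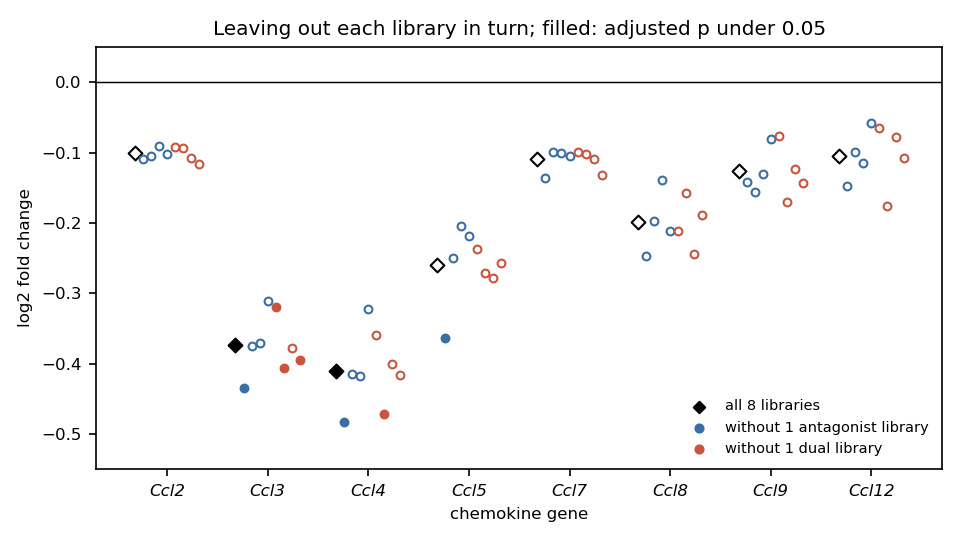
Log2 fold change (dual against antagonist) of 8 chemokines with all 8 libraries (diamonds) and with each library left out in turn (circles, blue for antagonist and red for dual libraries), filled where the adjusted p was under 0.05. All points lie below 0, and Ccl3, Ccl4 and Ccl5 are the genes with filled points; Ccl11, whose values ran from -0.98 to -0.27, is left out for scale.

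Ccl5 (RANTES), which attracts T cells and monocytes, was at 546, 716, 780 and 760 CPM in antagonist replicates 1 to 4 and at 556, 598, 604 and 582 CPM in dual replicates 1 to 4. Antagonist replicate 1 lay below every dual library, whereas the other 3 antagonist libraries lay above all of them. The means of Ccl5 were 701 ± 106 and 585 ± 21.3 CPM (SD, n = 4 each), which gave -0.26 on the log2 scale (SE 0.07; adjusted p = 0.135). Without antagonist replicate 1 the log2 fold change of Ccl5 was -0.36 and its adjusted p 0.000355. With all libraries its exact permutation p was 0.143.

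Ccl9, a ligand of Ccr1, was at 55.5, 53.6, 56.8 and 62.4 CPM in antagonist replicates 1 to 4 and at 46.4, 56.9, 51.6 and 54.0 CPM in dual replicates 1 to 4. The groups overlapped, with 2 dual libraries inside the antagonist range. On the log2 scale Ccl9 differed by -0.13 (SE 0.06), at an adjusted p of 0.357.

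Among the ligands of Ccr2, the estimated differences were small. Ccl2 (monocyte chemoattractant protein 1), the most abundant member, was at 1341, 1348, 1391 and 1355 CPM in antagonist replicates 1 to 4 and at 1239, 1245, 1275 and 1307 CPM in dual replicates 1 to 4. Its groups did not overlap, as for Ccl3, which made 2 of 9 members with no overlap and a lower dual group against 4.06% of all genes tested. Ccl2 had means of 1359 ± 22.1 and 1267 ± 31.2 CPM (SD, n = 4 each), a difference of -6.78% and a log2 fold change of -0.10 (SE 0.03). Its adjusted p was 0.145 and its exact permutation p 0.0286. DESeq2, run as an alternative, called Ccl2 at an adjusted p of 0.0080.

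Ccl7 (monocyte chemoattractant protein 3) was at 699, 754, 753 and 744 CPM in antagonist replicates 1 to 4 and at 668, 672, 679 and 715 CPM in dual replicates 1 to 4. Dual replicate 4 lay above antagonist replicate 1, and the other 3 dual libraries lay below every antagonist library. On the log2 scale Ccl7 differed by -0.11 (SE 0.03), and its adjusted p was 0.164 by edgeR and 0.0280 by DESeq2. With DESeq2, 4 members were thus called, all lower (Ccl2, Ccl3, Ccl4 and Ccl7), against 4.7% of the 8877 genes to which it gave an adjusted p; Ccl8 and Ccl11 received none.

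Ccl12, the mouse gene closest in action to Ccl2, was at 49.6, 55.2, 53.4 and 59.7 CPM in antagonist replicates 1 to 4 and at 46.0, 58.1, 47.7 and 50.9 CPM in dual replicates 1 to 4. The groups overlapped broadly. On the log2 scale Ccl12 differed by -0.10 (SE 0.06; adjusted p = 0.525), so no difference was shown beyond the spread between libraries.

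The ligands of Ccr8 and Ccr3 had the lowest levels per gene length in the first cluster. Ccl8 was at 16.0, 17.9, 20.1 and 17.4 CPM in antagonist replicates 1 to 4 and at 16.0, 14.2, 16.8 and 15.2 CPM in dual replicates 1 to 4. Of the dual libraries, 3 lay below every antagonist library, by a small margin for dual replicate 1. The difference was -0.20 on the log2 scale (SE 0.07; adjusted p = 0.236). Ccl11 had 15, 19, 35 and 10 counts in antagonist replicates 1 to 4 and 10, 3, 19 and 14 counts in dual replicates 1 to 4, 79 counts in all against 46. Antagonist replicate 3 and dual replicate 2 carry most of that difference. The difference for Ccl11 was -0.71 on the log2 scale (SE 0.44; adjusted p = 0.530), and it was -0.27 without antagonist replicate 3 and -0.41 without dual replicate 2, and a difference was not detectable at these counts. The other 8 members had over 500 counts in every library.

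Some pairs of members varied together between libraries of the same treatment. Over the 36 pairs, the correlation of deviations from the group means of log2 CPM in the 8 libraries was positive for 28 pairs, with a median r of 0.44, and negative for 8, of which 4 involve Ccl11. The same values were not computed for other genes. Here exact means that every order of the 8 deviations was counted, across both groups. Removing the group means ties the deviations within a group, so these p-values are approximate and may be too small. The most negative pair, Ccl11 and Ccl12, had r = -0.746 (exact permutation p = 0.0337, adjusted 0.113) and rho = -0.524 (exact p = 0.197, adjusted 0.506), and r was 0.141 without the 2 farthest libraries. Ccl3 and Ccl4 had r = 0.965 (exact permutation p = 0.000496, adjusted over the 36 pairs 0.0179) and Spearman's rho = 0.929 (exact p = 0.00223, adjusted 0.0268), and r was 0.949 without the 2 libraries farthest from the median of Ccl3. Ccl4 and Ccl12 had r = 0.934 (exact permutation p = 0.00174, adjusted 0.0313) and rho = 0.929 (exact p = 0.00223, adjusted 0.0268), with r = 0.956 without the 2 farthest libraries. Ccl3 and Ccl9 had the same rho of 0.929 (exact p = 0.00223, adjusted 0.0268) but r = 0.828 (exact p = 0.0124, adjusted 0.0865). No other pair had an adjusted p under 0.05 by either measure. For Ccl2 and Ccl7, neighbours in the first cluster, r was 0.756 (exact p = 0.0299, adjusted 0.113) and rho 0.762 (exact p = 0.0368, adjusted 0.189), and r was 0.449 without the 2 farthest libraries. The libraries of a pair share depth and cell makeup, whose part in these correlations was not tested.

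The receptors of the family showed no called change. Of 6 receptor and decoy genes, 4 passed the filter and none was called by edgeR. One gene, Ccr1, had an unadjusted p under 0.05 with a higher estimate, as had 1122 of the 18756 genes tested. DESeq2 gave an adjusted p to Ccr1 alone (0.209) and none to the other 5. The median log2 fold change of the receptors that passed was -0.21, with 3 estimates lower and 1 higher, against 48.5% of all genes with an estimate below 0. Ccr1, the receptor of Ccl3, Ccl5 and Ccl9, was at 27.8, 22.7, 26.8 and 25.2 CPM in antagonist replicates 1 to 4 and at 31.8, 27.5, 28.8 and 26.8 CPM in dual replicates 1 to 4. Its groups overlapped, and the dual estimate was higher by 0.16 on the log2 scale (SE 0.06; adjusted p = 0.294). Ccrl2, an atypical receptor that does not signal, had a log2 fold change of -0.05 (SE 0.06). Ackr1, an atypical receptor that binds many inflammatory chemokines, was low at 13 to 31 counts per library, and differed by -0.58 on the log2 scale (SE 0.30; adjusted p = 0.446). Ccr3, the receptor of Ccl11, had 0 to 16 counts per library and a log2 fold change of -0.36 (SE 0.60). Ccr2, the receptor of the monocyte chemoattractants, had 1 to 7 counts and the scavenger Ackr2 0 to 4 counts per library, and both fell below the filter. Per gene length, Ccr2 was at 0.00323 to 0.0224 FPKM, against 1080 to 1215 FPKM for its ligand Ccl2.

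Other CC chemokines did not share one direction. Of 11 listed symbols, 7 genes passed the filter, 4 with lower and 3 with higher estimates, and 1 was called. Over all genes tested, 48.5% had an estimate below 0 and 0.208% were called in either direction. Ccl22, a ligand of Ccr4 that attracts regulatory and Th2 cells, was at 2.75, 1.82, 2.42 and 2.33 CPM in antagonist replicates 1 to 4 and at 1.20, 1.26, 0.959 and 1.22 CPM in dual replicates 1 to 4. The groups did not overlap. Ccl22 fell by 1.01 on the log2 scale (SE 0.17; adjusted p = 0.0240), in a gene of 39 to 106 counts per library. The call was lost without antagonist replicate 3 or 4 or dual replicate 3, and with the replicate number as a block. Ccl1 had 0 to 2 counts and Ccl24 0 to 3 counts per library, Ccl19 and Ccl21a had no row in the table, and a second identifier of Ccl27a fell below the filter. The remaining log2 fold changes were -0.57 (Ccl17), -0.19 (Ccl20), -0.18 (Ccl27a), 0.20 (Ccl25), 0.38 (Ccl28) and 0.40 (Ccl6), none of them called.

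**Figure D4:**
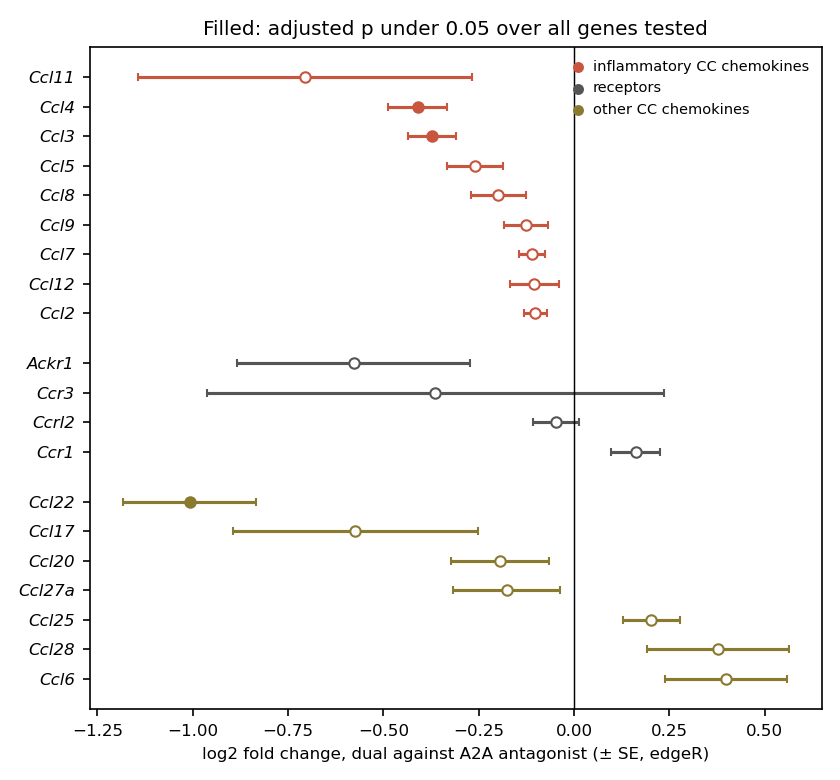
Log2 fold change of the dual against the antagonist group with its standard error, for the 9 inflammatory CC chemokines, 4 receptors and 7 other CC chemokines that passed the filter, filled where the adjusted p was under 0.05. All 9 inflammatory chemokines lie left of 0, with Ccl3 and Ccl4 filled, and Ccl22 is the other filled point.

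Genes upstream of the chemokines were examined with a list of 22 genes of LPS and interferon-γ sensing and NF-kB regulation, all of which passed the filter. None was called by edgeR, 9 had an unadjusted p under 0.05 (6 lower and 3 higher), 17 estimates were lower and 5 higher, and the median log2 fold change was -0.05. Among the 18756 genes tested, 6.81% were lower with an unadjusted p under 0.05, 1122 genes were higher, and 48.5% had an estimate below 0. The groups did not overlap for 5 of the 22 with a lower dual group, against 4.06% of all genes tested. They did not overlap for 1 with a higher dual group, against 630 of the 18756 genes tested. Irf1, an interferon-induced transcription factor, was at 127, 133, 138 and 137 CPM in antagonist replicates 1 to 4 and at 122, 119, 118 and 118 CPM in dual replicates 1 to 4. Its groups did not overlap, at -0.17 on the log2 scale (SE 0.04; adjusted p = 0.0557). Tnfaip3 (A20), which is induced by NF-kB and restrains it, had means of 189 ± 7.38 and 169 ± 3.78 CPM (SD, n = 4 each), a difference of -0.16 on the log2 scale (SE 0.04) and adjusted p = 0.0606. Among the higher estimates, Dusp1, a phosphatase that limits MAP kinase signalling, had a log2 fold change of 0.19 (adjusted p = 0.265) and Tlr4, the LPS receptor, 0.14 (adjusted p = 0.268). DESeq2 called 4 of the 22, all lower: Irf1, Tnfaip3, Nfkbia (the NF-kB inhibitor alpha) and Irf7. It called 4.7% of the 8877 genes to which it gave an adjusted p, in either direction.

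Markers of the cell types that such cultures could hold were measured in the same libraries. The summed level of the 10 microglial markers was 1058 to 1129 CPM in the antagonist group and 1006 to 1071 CPM in the dual group, ranges that overlapped. Only C1qa was called lower (-0.24 on the log2 scale, adjusted p = 0.0240), where 0.16% of all genes tested were. C1qa weighs heavily in the sum: its means were 476 and 403 CPM, within summed means of 1105 and 1037 CPM. The median log2 fold change was -0.02, with 6 of the 10 estimates lower. Csf1r and Cx3cr1 were among those with higher estimates, by 0.11 and 0.03 on the log2 scale, neither called. The 7 astrocyte markers summed to 5777 to 6044 and 5830 to 6282 CPM, and the 6 fibroblast markers to 2379 to 2652 and 2369 to 2986 CPM, with none called. The 6 oligodendrocyte lineage markers summed to 498 to 532 CPM in the antagonist group and 465 to 494 CPM in the dual group, ranges that did not overlap, with none called. Sums were 34.8 to 44.9 and 36.8 to 44.8 CPM for 3 endothelial, 157 to 173 and 157 to 181 CPM for 4 mural, and 9.21 to 11.3 and 9.12 to 10.1 CPM for 4 neuronal markers, with overlapping groups. The T and NK cell markers were at or near 0 (0.242 CPM or less summed over 4 genes), and of the neutrophil markers S100a8 was listed, at 2.00 to 3.61 CPM. The part of C1qa-expressing or oligodendrocyte lineage cells in the chemokine differences was not tested.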

How the data were processed

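Per the labels and the methods of the study, the authors purified mRNA from total RNA with poly-T beads, aligned paired-end reads to the mouse genome (mm10) with HISAT2 and counted reads per gene with featureCounts 1.5.0-p3. The deposited counts are raw, per library and not pooled, and the authors also deposited FPKM, counts scaled by gene length and sequencing depth, with the gene length itself as another column. The deposited tables further hold DESeq2-normalised values, group means and the authors' own test results (log2 fold change, p-value, adjusted p-value), which were not used. The table of the antagonist against control has 9 columns of per-sample values (3 libraries) that match no sample of the series, and these were not used here. Antagonist counts were the same in both tables for all 30302 shared genes (0 differing values).

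The counts were analysed in edgeR 4.0.16 (R 4.3.3): filterByExpr (minimum count 10), TMM factors, quasi-likelihood F test without covariates (6 residual degrees of freedom), and Benjamini-Hochberg adjustment over 18756 genes, called under 0.05. The biological coefficient of variation was 5.28%. Each standard error was obtained from its F statistic. Levels are TMM-scaled CPM. Levels of different genes are compared only by FPKM, and CPM ratios of members only between the groups. Single values were compared with two-sided exact permutation tests over 70 arrangements (scipy 1.17.1). Correlations were compared over all pairings of the deviations from the group means, which gives approximate p-values. Coordinates are those of the deposited tables, and 97.5% of 31358 identifiers had the same ones in GENCODE M21 (GRCm38). Deviations of same-numbered libraries correlated at -0.21 to -0.05, so no pairing by replicate number was seen. Whether libraries with other numbers came from the same litter was not tested.

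Alternatives were DESeq2 1.42.0, RLE or no scaling factors, no low-count filter, a replicate block and leaving out each library. Named genes were the 9 members, every listed receptor, and of the other lists the called genes or, if none, the 2 of smallest p in each direction, plus those not detected; other CC chemokines, Nfkbia, Irf7 and C1qa were named after their values were seen. The members and lists were chosen with earlier results of these data known. Certain genes and sequences are not reported here.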

Additional observations from a re-analysis of the deposited data

How the results depend on the processing

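All 117 alternative log2 fold changes of the 9 members (13 alternatives each) were below 0, but the number of calls moved widely. The members called were 2 with all libraries, 0 to 3 when 1 library was left out (0 without antagonist replicate 2, 3 or 4 or dual replicate 3, 1 without dual replicate 1 or 4, and 3, with Ccl5 added, without antagonist replicate 1), 3 with no low-count filter and 4 with DESeq2. Over all genes, 39 were called, 366 with no filter, 417 with DESeq2 (298 lower; 38 of the 39 among them), 17 with the replicate block (15 of the 39 among them) and 0 to 172 when 1 library was left out (172 without antagonist replicate 1, 5, 6 and 0 without antagonist replicates 2, 3 and 4, and 0 without dual replicate 3). The replicate block kept both member calls, and no library correlated best with its own number in the other group. Other CC chemokines called were 1, 0 with the replicate block, and 0 to 1 when 1 library was left out; DESeq2 gave Ccl22 no adjusted p. Regulators called were 0, 4 with no filter, 4 with DESeq2, and 0 to 4 when 1 library was left out (4 without antagonist replicate 1). Receptors called were 0 under all 13 alternatives, although DESeq2 gave 5 of the 6 no adjusted p. RLE factors and total-count scaling each gave 39 calls, and moved the median of all genes by -0.0004 and 0.0104 on the log2 scale. The cause of these shifts in the count of calls was not tested. Adjusted p over the alternatives ran from 5.74e-08 to 0.0932 for Ccl3, 3.09e-07 to 0.100 for Ccl4, 0.0080 to 0.342 for Ccl2, 0.000225 to 0.358 for Ccl5 and 0.0280 to 0.391 for Ccl7. Ccl11 had 3 to 35 counts per library, and the other members had over 500 in each.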

Other observations

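The balance between members was compared through the ratio of CPM values within each library, over all 36 pairs, a comparison added after the values had been seen. Ratios of 5 pairs did not overlap between the groups: Ccl3 to Ccl7, Ccl3 to Ccl9, Ccl3 to Ccl12, Ccl4 to Ccl9 and Ccl4 to Ccl12. All 5 were lower in the dual group, by -0.26, -0.24, -0.26, -0.28 and -0.30 on the log2 scale. Each sets Ccl3 or Ccl4, the members called lower, over another member, so these ratios draw on the same differences and libraries. CPM is not divided by gene length, so these ratios compare the groups and do not give the level of one gene relative to another. The ratio of Ccl3 to Ccl12 was 3.32 to 3.56 in the antagonist libraries and 2.68 to 3.07 in the dual libraries. That of Ccl4 to Ccl12 was 1.58 to 1.83 and 1.34 to 1.43. Each of the 5 ratios had an exact permutation p of 0.0286, the smallest possible, and none passed adjustment over the 36 pairs (smallest adjusted p 0.206). The ratio of Ccl3 to Ccl4 itself was 1.95 to 2.10 with the antagonist and 1.98 to 2.16 with both ligands, and that of Ccl2 to Ccl7 was 1.79 to 1.92 and 1.83 to 1.88. Both of these ratios overlapped between the groups (exact permutation p = 0.400 and 0.686).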
